A study of Homo sapiens with 4 samples.

Results

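The classical cadherins E-cadherin (CDH1), N-cadherin (CDH2) and P-cadherin (CDH3) and the catenins that bind their tails (CTNNA1, CTNNB1, CTNND1 and JUP) were followed in MCFDCIS, a basal-subtype breast cancer line, after transfection with Slug siRNA. All probes whose gene symbol in the platform annotation was one of these 7 genes were taken, which gave 20 of the 47323 probes on the array, and all 7 genes are among the 11200 tested. Of the 20 probes, 12 had a detection p under 0.05 on at least 2 arrays and were tested, and the other 8 are given by detection only. The study compared cells transfected with Slug siRNA (2 arrays, replicates 1 and 2) with cells transfected with a control siRNA (2 arrays, replicates 1 and 2), and RNA was taken 72 hours after transfection. All 4 samples are the same line, labelled MCFDCIS, on the same chip, so results from other lines or from other siRNA sequences cannot be read from them. The labels call the samples biological replicates without naming separate days or stocks, and the p-values therefore cover the spread of these arrays only.

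Classical cadherins hold neighbouring cells together by calcium-dependent binding of their outer domains. Inside the cell, p120-catenin (CTNND1) binds next to the membrane and stabilises the cadherin at the surface, while beta-catenin (CTNNB1) or plakoglobin (JUP) binds the end of the tail and recruits alpha-catenin (CTNNA1), which links the complex to actin. E-cadherin is the main classical cadherin of epithelia. In the breast P-cadherin is found in basal and myoepithelial cells, and N-cadherin is typical of mesenchymal and neural cells. Slug, the product of SNAI2, is a repressor that binds the E-box CAGGTG and is known to repress CDH1, and a change from E- to N-cadherin is a hallmark of epithelial to mesenchymal transition.

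Start regions of some of the members were read from RefSeq (GRCh38.p14), from 250 bases before to 50 after a transcript start. The sequences used cover 4 of the 7 genes (CDH2, CTNNA1, CTNNB1 and JUP), in 9 windows, some of which overlap, and those of CDH1, CDH3 and CTNND1 were not analysed here. The letters CAGGTG, on either strand (CACCTG on the printed strand), were searched in each. They were found in 1 of the 9 windows, a start of JUP, while 20.6% of all 35116 windows of this length held them. Capitals mark these letters in the window shown for JUP, where the first bases of the matches lie 54 and 43 bases before the start and the second match reads CAGGTG. The window of the first listed CDH2 start is shown because CDH2 had the lowest fold change of the 7 genes as reported, and it holds neither these letters nor the wider E-box CANNTG, of which they are a special case and which 68.7% of all windows hold. The window of the second listed CDH2 start, not shown, also lacks CAGGTG but holds 1 CANNTG match (CAGATG). No binding was measured here, and a match is a description of letters only.
CDH2, chr18:28177081-28177380, minus strand: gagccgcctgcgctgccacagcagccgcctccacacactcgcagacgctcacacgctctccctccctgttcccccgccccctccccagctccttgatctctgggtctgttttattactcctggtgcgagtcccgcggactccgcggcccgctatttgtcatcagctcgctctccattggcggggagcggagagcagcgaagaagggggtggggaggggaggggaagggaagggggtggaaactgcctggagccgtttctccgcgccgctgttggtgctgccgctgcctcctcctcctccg
JUP, chr17:41785927-41786226, minus strand: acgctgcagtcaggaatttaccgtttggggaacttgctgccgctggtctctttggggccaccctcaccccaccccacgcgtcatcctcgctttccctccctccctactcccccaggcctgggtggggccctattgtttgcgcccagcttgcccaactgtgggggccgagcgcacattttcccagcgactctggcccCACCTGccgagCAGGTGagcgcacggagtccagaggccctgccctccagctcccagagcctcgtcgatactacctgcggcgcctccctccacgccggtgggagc

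The arrays had 39.8% to 40.8% of their probes detected (p under 0.05), and a probe was read by a median of 20 or 21 beads. The negative control beads averaged 109.7 to 114.9 intensity units with an SD of 7.15 to 7.88. SNAI2, the siRNA target, had log2 intensities of 8.57 and 8.51 on the Slug siRNA arrays, against 8.95 and 9.01 on the control arrays, for its brighter probe. Its log2 fold change was -0.44 (95% interval of the limma fit -0.81 to -0.07, which like all intervals here is not adjusted for the number of probes, adjusted p = 0.316), and its other probe gave -0.37 (adjusted p = 0.429). Basal epithelial markers were detected on all arrays for 4 of the 4 genes analysed here, among them KRT5, and simple epithelial markers for 5 of 6, among them EPCAM. The summed log2 intensity of the simple epithelial list was 14.52 to 14.58 on the Slug siRNA arrays and 13.91 to 13.93 on the control arrays. That of the basal list was 13.34 to 13.43 on the Slug siRNA arrays and 13.25 to 13.31 on the control arrays. Within it the means of KRT5 and LAMB3 were higher with Slug siRNA and those of KRT14 and ITGB4 lower. None of the 6 fibroblast markers was detected on all arrays and 5 were detected on none. Of 5 endothelial markers PECAM1 was detected on all arrays and CDH5, VWF and TEK on none, and the summed list read 8.29 to 8.79 with Slug siRNA and 8.96 to 9.35 with control siRNA. Of 5 leukocyte markers CD14 and CD68 were detected on all arrays and PTPRC, CD3E and ITGAM on none, and that sum read 10.09 to 10.74 with Slug siRNA and 10.01 to 10.14 with control siRNA. The part of these marker levels in the cadherin values was not tested. In bulk RNA, fewer cells with a transcript and less of it per cell cannot be told apart.

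The comparison asks how cadherin and catenin RNA differs between cells given Slug siRNA and cells given control siRNA. The cadherins differed in opposite directions: CDH1 read higher and CDH2 lower on both Slug siRNA arrays than on either control array, and CDH3 read slightly lower. The catenin probes had log2 fold changes from -0.29 (a CTNNB1 probe) to 0.21 (a JUP probe), and none of the 12 cadherin and catenin probes passed the threshold of an adjusted p under 0.05 (limma with Benjamini-Hochberg adjustment over all 19446 probes tested). Across the array 13 probes passed, 0.0669% of those tested, 4 of them higher and 9 lower with Slug siRNA, and with the authors' normalized values 2 were higher and 1 lower. At an unadjusted limma p under 0.05, 1 member probe was higher (CDH1) and 1 lower (CDH2), against 5.97% and 6.61% of all probes tested. The groups did not overlap in 2 member probes that were higher and 3 that were lower, against 21.9% and 20.8% of all probes, so these counts are near the background. The members' median log2 fold change was -0.09 over 7 genes, each by its brightest probe, beside 0.01 over all 11200 genes tested. The fit used here held group alone. With the replicate number as a block, CDH2 passed the adjusted threshold (limma adjusted p = 0.031), as given in the closing section.

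E-cadherin was read by a single probe, with signals of 2081 and 2791 intensity units on the Slug siRNA arrays, against 1648 and 1650.4 units on the control arrays. Both Slug siRNA arrays lay above both control arrays, and replicate 2 of Slug siRNA stood highest. The standard errors over the 19 to 32 beads of an array were 51.9 and 64.7 units with Slug siRNA and 50.01 and 37.3 units with control siRNA, which is the spread of beads within an array and not that of replicates. After normalization the log2 intensity was 11.15 ± 0.28 with Slug siRNA and 10.63 ± 0.02 with control siRNA (SD, n = 2 each). The log2 fold change was 0.52 (SE 0.19, 95% interval 0.08 to 0.96), which is 1.43-fold, at a limma adjusted p of 0.317. The difference within replicate 2, 0.73, was larger than that within replicate 1, 0.31. Without Slug siRNA replicate 2 the log2 fold change was 0.32, so this array moves the value by over 1.5 times. By log2 fold change, 483 of 11200 genes (4.31%) stood as high or higher.

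N-cadherin was also read by a single probe, and it was dim on every array. Its signal was 136 and 139 intensity units with Slug siRNA, against 162 and 172 units with control siRNA. The Slug siRNA arrays were close to each other and both lay below both control arrays. The detection p was 0.010 and 0.0065 on the Slug siRNA arrays and listed at 0 on both control arrays, so the probe stood above the negative controls in both groups. Bead standard errors were 3.65 and 3.96 units with Slug siRNA and 8.44 and 6.09 units with control siRNA, over 13 to 22 beads. The normalized log2 intensity was 5.29 ± 0.01 with Slug siRNA and 6.19 ± 0.15 with control siRNA (SD, n = 2 each). The log2 fold change was -0.89 (SE 0.17, 95% interval -1.28 to -0.50) with a limma adjusted p of 0.092 and an unadjusted p of 9.5e-04, and control siRNA was 1.86 times Slug siRNA. By log2 fold change, 114 of 11200 genes (1.02%) stood as low or lower. The size depends on how this dim probe was processed. The log2 fold change was -0.29 (limma adjusted p = 0.192) without background correction and -0.55 (adjusted p = 0.084) with a larger offset. Both settings leave more constant signal in the probe, which draws its fold change toward 0 whatever the true difference. They therefore do not show that -0.89 is too large.

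P-cadherin, read by a single probe, had signals of 1155 and 1295 intensity units with Slug siRNA, against 1347 and 1262 units with control siRNA. The deposited signals of the groups overlapped, and after normalization the Slug siRNA arrays, at log2 intensities of 10.04 and 10.17, lay just below the control arrays, at 10.31 and 10.22. The log2 fold change was -0.16 (95% interval -0.55 to 0.22, limma adjusted p = 0.752). That interval holds no change and also a fall as deep as 0.55 on the log2 scale. It was -0.10 without Slug siRNA replicate 1, over 1.5 times nearer to 0.

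**Figure D1:**
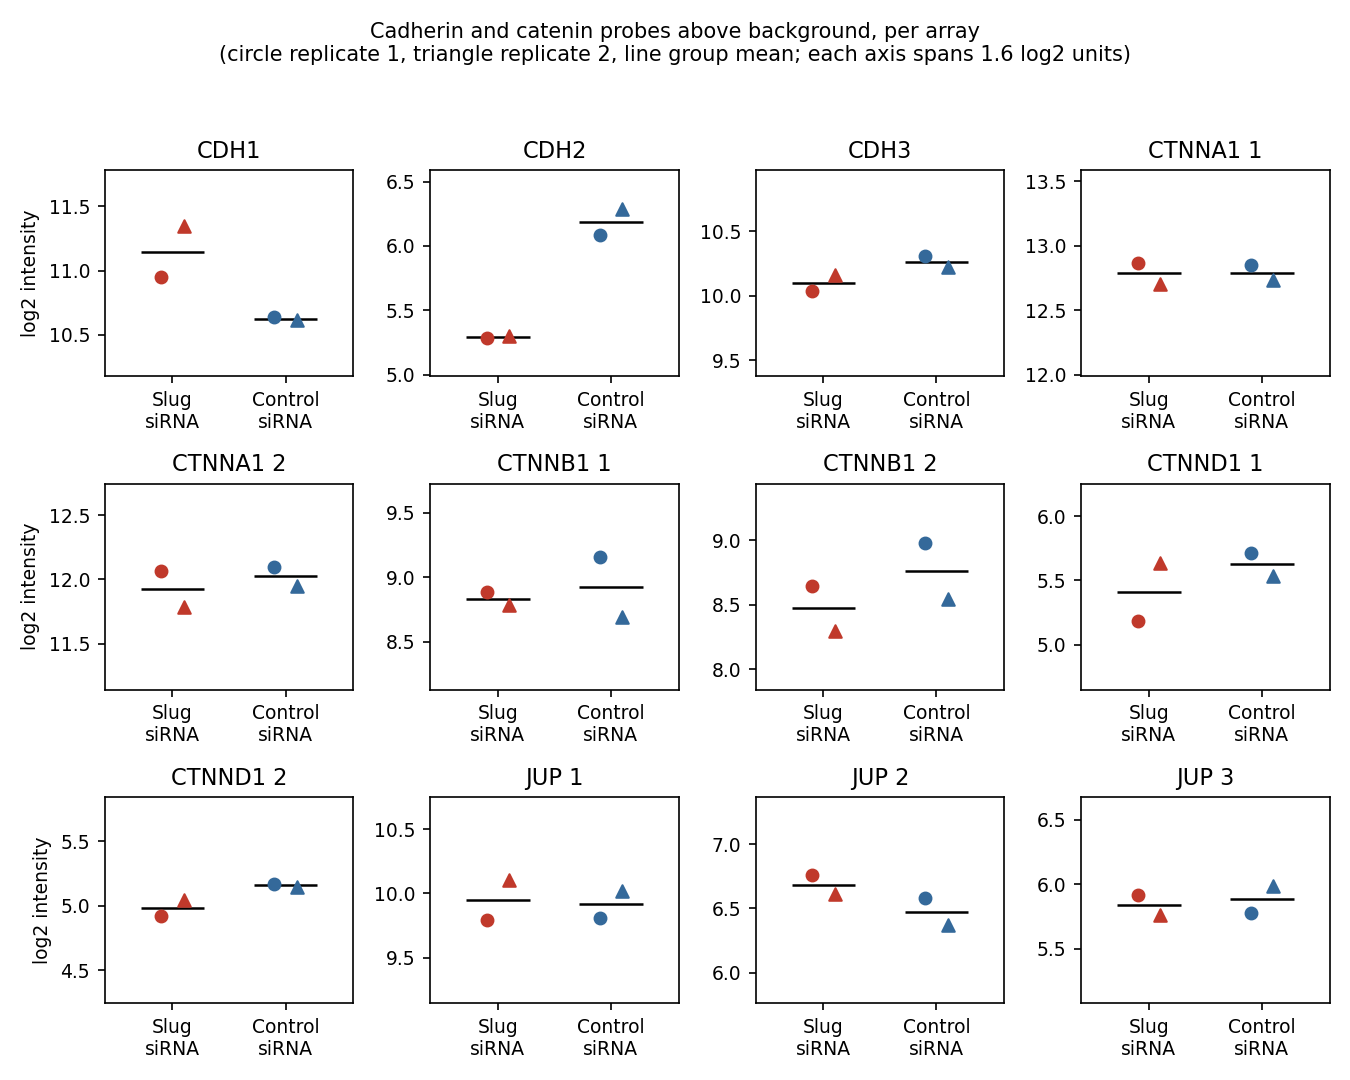
Normalized log2 intensity of the 12 cadherin and catenin probes above background on each array, Slug siRNA left in red and control siRNA right in blue, with replicate 1 as circles, replicate 2 as triangles and the group mean as a line; numbers after a gene count its probes from the brightest, and each panel has its own axis of equal length. CDH1 separates upward with Slug siRNA (means 11.15 and 10.63) and CDH2 downward (5.29 and 6.19), while most catenin probes overlap.

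The balance between the cadherins was followed as a log2 ratio within each array. Probes bind with different strength, so only the change of a ratio between arrays can be read, not its level. The E- over N-cadherin log2 ratio was 5.66 and 6.04 on the Slug siRNA arrays, against 4.56 and 4.32 on the control arrays. It was 1.41 higher with Slug siRNA on the log2 scale, a 2.66-fold change of the ratio, and the groups were 1.11 apart at their nearest arrays. Within replicate 1 the difference was 1.11 and within replicate 2 it was 1.72. The exact two-sided permutation test gave p = 0.333, the smallest that 2 against 2 arrays allow, so this design cannot pass a threshold of 0.05 for a single value.

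The P- over N-cadherin log2 ratio was 4.75 and 4.86 with Slug siRNA, against 4.23 and 3.93 with control siRNA, a difference of 0.73. The E- over P-cadherin log2 ratio was 0.91 and 1.18 with Slug siRNA, against 0.33 and 0.39 with control siRNA, a difference of 0.68. Neither ratio overlapped between the groups, and the exact permutation p was 0.333 for each. CDH1 lay higher and CDH2 and CDH3 lower on both Slug siRNA arrays after normalization, so the ratios with CDH1 had to separate. Among single probes of the whole array, 21.9% separated as higher and 20.8% as lower. The 3 ratios share probes, and the E- over N-cadherin difference is the sum of the other two. Without background correction the E- over N-cadherin difference was 0.78 and the P- over N-cadherin difference 0.14, and with an offset of 50 they were 1.06 and 0.39, whereas the E- over P-cadherin difference, which does not use the dim CDH2 probe, was 0.64 and 0.67. Both settings draw the fold change of a dim probe toward 0 by construction.

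**Figure D2:**
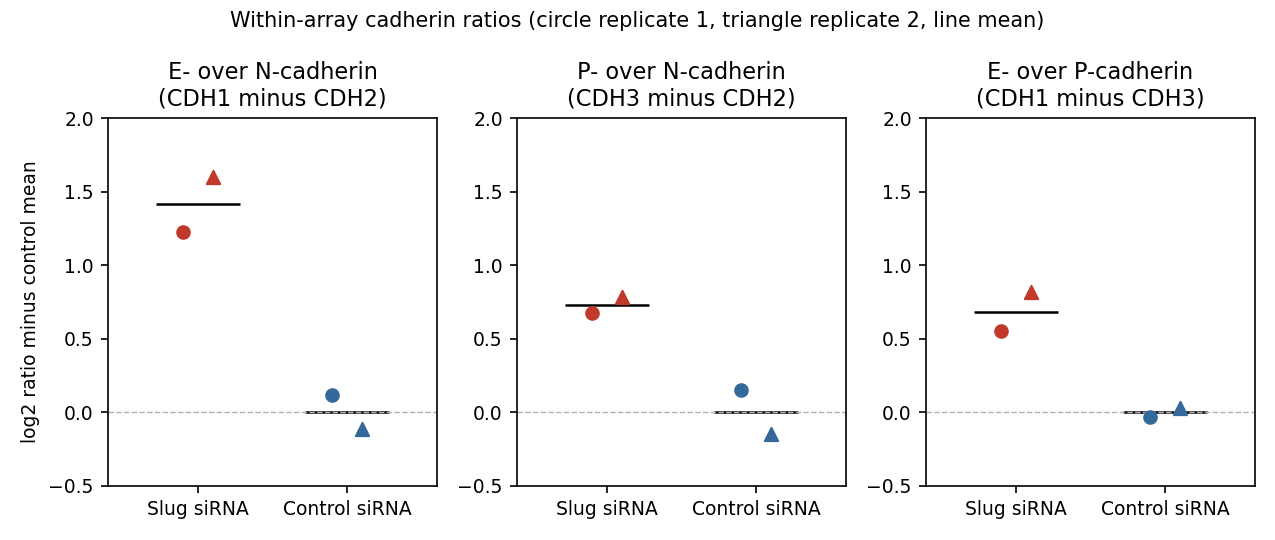
Within-array log2 ratios of E- over N-, P- over N- and E- over P-cadherin, each minus its control siRNA mean, for Slug siRNA (left, red) and control siRNA (right, blue), with replicate 1 as circles, replicate 2 as triangles and the mean as a line. The Slug siRNA means lie 1.41, 0.73 and 0.68 above the control means. No ratio overlaps between groups, which for the ratios with CDH1 follows from the separation of their probes.

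Among the catenins, alpha-catenin (CTNNA1) had the brightest probes of the group, at 7606 and 7081 intensity units with Slug siRNA, against 7266 and 6644 units with control siRNA. The groups overlapped, and within each group replicate 1 read above replicate 2. Its log2 fold change was -0.01 (95% interval -0.39 to 0.38, limma adjusted p = 0.994), and that of its second probe was -0.10 (95% interval -0.52 to 0.32, adjusted p = 0.891).

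Beta-catenin (CTNNB1), which also carries Wnt signals to the nucleus, had 7 probes, of which 2 were tested. The brighter probe read 573 and 554 intensity units with Slug siRNA, against 656 and 500.2 units with control siRNA, and the control arrays enclosed the Slug siRNA arrays. Its log2 fold change was -0.09 (95% interval -0.57 to 0.38, limma adjusted p = 0.911). The other probe had log2 intensities of 8.64 and 8.30 with Slug siRNA, against 8.98 and 8.55 with control siRNA, and a log2 fold change of -0.29 (95% interval -0.80 to 0.21, adjusted p = 0.646). In both groups replicate 1 read above replicate 2 for this probe, and the difference was -0.34 within replicate 1 and -0.25 within replicate 2. Of the remaining 5 probes, 4 were detected on no array and 1 on a single control array, so they carry no fold change. Without control siRNA replicate 1 the brighter probe stood at 0.14 and the other at -0.08, and without control siRNA replicate 2 they stood at -0.33 and -0.51.

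Plakoglobin (JUP), the catenin shared by adherens junctions and desmosomes, had 3 probes, detected on every array. The brightest read 996 and 1234 intensity units with Slug siRNA, against 975 and 1111 units with control siRNA, so the groups overlapped and replicate 2 was the higher of each. Its log2 fold change was 0.03 (95% interval -0.40 to 0.47, limma adjusted p = 0.970). The second probe did not overlap, with log2 intensities of 6.76 and 6.61 with Slug siRNA, against 6.58 and 6.37 with control siRNA, but its log2 fold change of 0.21 did not pass (95% interval -0.19 to 0.61, adjusted p = 0.688), and it was 0.11 with control siRNA replicate 2 left out, 0.13 with Slug siRNA replicate 1 left out and 0.10 without background correction. The third gave -0.04 (adjusted p = 0.958), so the signs of the 3 probes differed, and the interval of each held 0.

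p120-catenin (CTNND1) stood closest to background, with 2 of its 5 probes tested. The brighter probe read 133 and 149 intensity units with Slug siRNA, against 146 and 142 units with control siRNA. In these signals the Slug siRNA arrays enclosed the control arrays, and the log2 fold change was -0.22 (95% interval -0.69 to 0.26, limma adjusted p = 0.738). The second probe, detected on 1 of 2 Slug siRNA arrays and on both control arrays, gave -0.18 (95% interval -0.55 to 0.20, adjusted p = 0.720). The other 3 probes were detected on no array. Without background correction the fold changes of the tested probes were -0.06 and -0.04, and that of the brighter probe was 0.01 or -0.44 when replicate 1 or replicate 2 of Slug siRNA was left out.

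**Figure D3:**
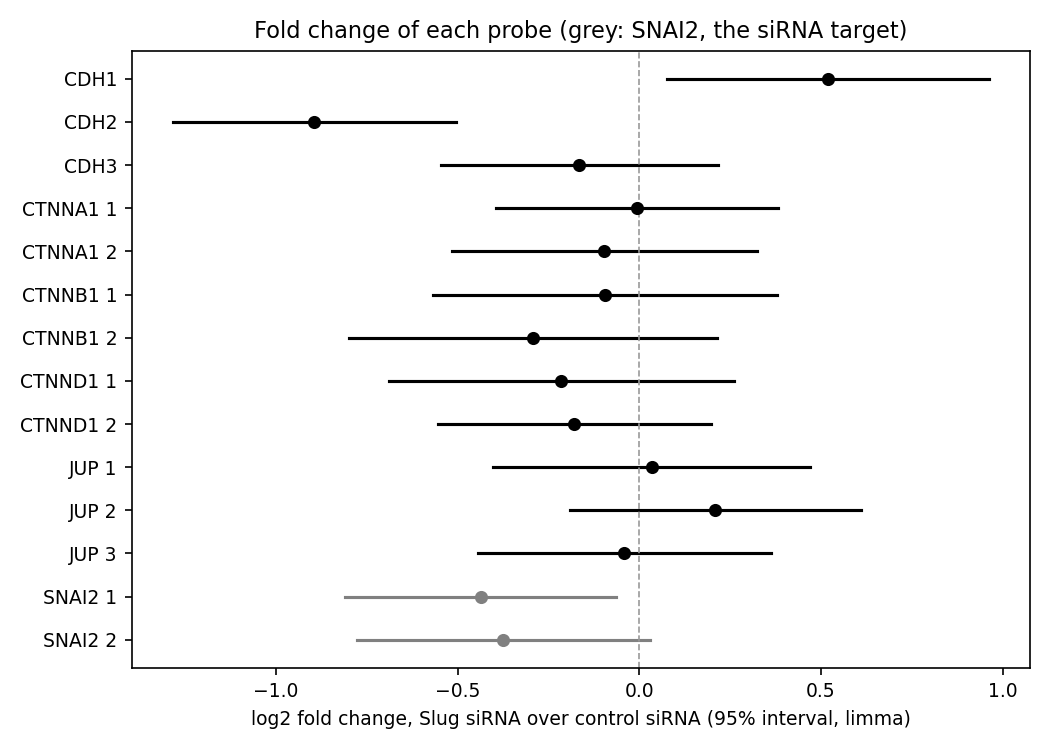
Log2 fold change, Slug siRNA over control siRNA, of each tested cadherin and catenin probe (black) and of the SNAI2 probes (grey), as points with limma 95% intervals not adjusted for the number of probes; the dashed line is no change. Only the intervals of CDH1 (0.08 to 0.96) and CDH2 (-1.28 to -0.50) leave out 0 among the 12 cadherin and catenin probes.

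The intervals say how far the catenins could have differed. Over the tested probes of CTNNA1, CTNNB1 and JUP the 95% intervals lay within -0.80 (the less bright CTNNB1 probe) and 0.61 (the second JUP probe) on the log2 scale. Those of CTNND1 reached -0.69, but its probes stand near background, where the offset left in the signal understates a fold, so they set no limit on its true difference. The lower ends for the probes that stand for CTNNB1 (-0.57) and CTNND1 (-0.69) lay further from 0 than the log2 fold change of CDH1, so the data do not show that catenin RNA was equal in the groups.

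Genes whose profile over the 4 arrays lay nearest to a cadherin were found by the Euclidean distance between log2 values after each gene's mean was subtracted. Nearest to CDH1 were KIFBP (distance 0.052), ASGR1 (0.053), which was not detected on either control array, and CLK4 (0.061). Nearest to CDH2 were PGAM1 (0.067), the glycolytic phosphoglycerate mutase, CARD10 (0.111) and SSH1 (0.111), a cofilin phosphatase. PGAM1 was a bright gene, at 11.18 ± 0.01 with Slug siRNA and 12.02 ± 0.10 with control siRNA (SD, n = 2 each), and its log2 fold change was -0.85 (limma adjusted p = 0.095). Nearest to CDH3 were HIBCH (0.015), LSM6 (0.024) and MATR3 (0.027). The median distance of all genes was 0.650 to CDH1, 0.960 to CDH2 and 0.392 to CDH3. With 4 arrays and 11200 genes some profiles lie close to any gene, so the names are a description of these arrays. The CDH2 profile also depends on the background correction of a dim probe. Its log2 fold change was -0.29 without that correction and -0.55 with an offset of 50, and nearness under those settings was not tested.

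The wider adhesion pathway was described by 6 gene lists, and none of their genes passed the adjusted threshold in either direction, against 0.116% of all genes. Among partners of the adherens junction (25 of 32 listed genes tested, median log2 fold change -0.10), 3 genes were lower at an unadjusted limma p under 0.05, beside 6.87% of all genes. CTNNAL1, a relative of alpha-catenin, had log2 intensities of 8.61 and 8.498 with Slug siRNA, against 9.49 and 9.64 with control siRNA. It was lower on both Slug siRNA arrays, with a log2 fold change of -1.01 (limma adjusted p = 0.074) and -1.07 by the less bright of its 2 probes. ACTN4, an actinin that crosslinks actin, stood at -0.66 (adjusted p = 0.180), and SSX2IP, named here after its value was seen as the remaining lower gene, at -0.65. NECTIN4, an immunoglobulin-like adhesion receptor of the junction, was not above background with control siRNA. As processed here, its measured means were 5.39 with Slug siRNA and 4.75 with control siRNA. The Slug siRNA mean lay 1.37-fold above a bound set for the control level. NECTIN4 passed the filter on dim probes through the Slug siRNA arrays alone and is not counted as a higher gene. That bound uses, on each control array, the higher of the probe's own value and the lowest signal among detected probes. It holds for the reported processing only and leaves out the spread between arrays, so 1.37-fold is not a lower limit of the difference. The log2 fold change of NECTIN4 was 0.17 without background correction and 0.32 with an offset of 50. WTIP, an Ajuba family LIM protein, stood at 0.28 (limma adjusted p = 0.539), and at 0.12 without background correction. Its less bright probe gave 0.10.

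Of the other cadherins 13 of 36 listed genes were tested, and the median was 0.02. PCDH1, a protocadherin of epithelia, was highest at 0.82 (limma adjusted p = 0.280) and CDH20, a type II cadherin, followed at 0.42 (adjusted p = 0.459), though each was detected on only 1 of 2 control arrays. CELSR2, a seven-pass cadherin of planar polarity, was lowest at -0.68 (adjusted p = 0.300), and CELSR3 came next at -0.13 (adjusted p = 0.872), from -0.33 to 0.08 with single arrays left out. Without background correction PCDH1 stood at 0.25, CDH20 at 0.11 and CELSR2 at -0.42. When replicate 1 was left out, PCDH1 was 0.51 (the Slug siRNA array) or 0.55 (the control array), CDH20 was 0.67 (the Slug siRNA array) and CELSR2 was -0.40 (the control array). Leaving out Slug siRNA replicate 2 gave 0.17 for CDH20. As reported, PCDH1 (higher) and CELSR2 (lower) were the only genes of this list at an unadjusted p under 0.05, which 6.18% of all genes reached as higher and 6.87% as lower. Endothelial CDH5 was not detected on any array.

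Genes of cadherin turnover and cleavage (23 of 25 tested) had a median of -0.01. Only YES1, a Src family kinase, had an unadjusted limma p under 0.05 (log2 fold change -0.54, adjusted p = 0.240). Among all genes 6.18% reached this as higher and 6.87% as lower. NCSTN, a subunit of gamma-secretase, stood at -0.25 (adjusted p = 0.730), PSEN2, a catalytic subunit of gamma-secretase, at 0.37 (adjusted p = 0.404), and NEDD4, a ubiquitin ligase, at 0.29 (adjusted p = 0.597). Leaving out replicate 1 or 2 of Slug siRNA gave -0.47 or -0.04 for NCSTN and 0.46 or 0.11 for NEDD4. For NCSTN the same with control siRNA gave -0.02 or -0.48.

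Genes that destroy or bind beta-catenin (16 of 23 tested) had a median of 0.06. At an unadjusted limma p under 0.05, 2 were lower, beside 6.87% of all genes. LEF1, a transcription factor that beta-catenin binds, had log2 intensities of 5.31 and 5.62 with Slug siRNA, against 6.50 and 6.05 with control siRNA. The groups did not overlap, and its 2 probes gave log2 fold changes of -0.80 (adjusted p = 0.199) and -0.82. LEF1 was dim, and the first of these was -0.28 without background correction and -0.51 with an offset of 50. PYGO2, a co-activator of beta-catenin, stood at -0.50 (adjusted p = 0.285), or -0.13 without background correction and -0.26 with an offset of 50, and was detected on 1 of 2 Slug siRNA arrays. CBY1, an antagonist of beta-catenin, stood at 0.34 (limma adjusted p = 0.467), its less bright probes giving 0.51 and 0.59. BCL9L, a beta-catenin co-activator, stood at 0.22 (adjusted p = 0.645), or 0.09 without background correction and 0.14 without Slug siRNA replicate 2. Of the beta-catenin target genes 10 of 20 were tested, with a median of -0.13, 3 of them positive and 7 negative. At an unadjusted limma p under 0.05, 1 was higher (CCND1) and 1 lower (LEF1), beside 6.18% and 6.87% of all genes. The cyclin gene CCND1 read 12.10 and 12.15 with Slug siRNA, against 11.58 and 11.83 with control siRNA, a log2 fold change of 0.42 (limma adjusted p = 0.368). DKK1, a secreted Wnt inhibitor, stood at 0.90 (adjusted p = 0.411) with overlapping groups, LEF1, also on this list, at -0.80, and TNFRSF19 at -0.46 (adjusted p = 0.708). Single arrays moved these values: with replicate 1 or 2 of Slug siRNA left out, DKK1 was 1.27 or 0.52, TNFRSF19 was -0.85 or -0.07 and the list median was -0.24 or -0.03. With replicate 1 or 2 of control siRNA left out, DKK1 was 0.33 or 1.46, TNFRSF19 was 0.11 or -1.03 and the list median was -0.15 or -0.08.

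Repressors of CDH1 transcription, Slug included, were set beside CDH1. Of the 19 listed genes 12 were tested, and SNAI1, SNAI3, ZEB1 and ZEB2 were among those that were not. The median was -0.27, and 5 genes were lower at an unadjusted limma p under 0.05, with 6.87% lower among all genes. SNAI2, the siRNA target, is 1 of the 5. TWIST2 had log2 intensities of 5.05 and 5.23 with Slug siRNA, against 6.36 and 6.54 with control siRNA, a log2 fold change of -1.31 (adjusted p = 0.055). It was dim with Slug siRNA, and the fold change was -0.44 without background correction and -0.81 with an offset of 50, where CTNNAL1 stood lower, at -0.83 and -0.95. Both settings draw dim probes toward 0 the most, so they do not settle the order of these genes. TCF3, the E-protein E2A, stood at -0.64 (adjusted p = 0.199), or -0.36 without background correction, and SIN3A and TWIST1, named after their values were seen, at -0.47 and -0.42. EZH2, the methyltransferase of Polycomb complexes, stood at 0.27 (limma adjusted p = 0.572), its less bright probes giving 0.44 and 0.46. The co-repressor gene CTBP2 stood at 0.29 (adjusted p = 0.792), its less bright probe giving -0.20. Without background correction EZH2 was 0.18 and CTBP2 0.17, and CTBP2 was 0.61 or -0.04 when replicate 1 or 2 of Slug siRNA was left out and -0.12 or 0.696 when replicate 1 or 2 of control siRNA was. The list median was -0.07 with no filter on dim probes.

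**Figure D4:**
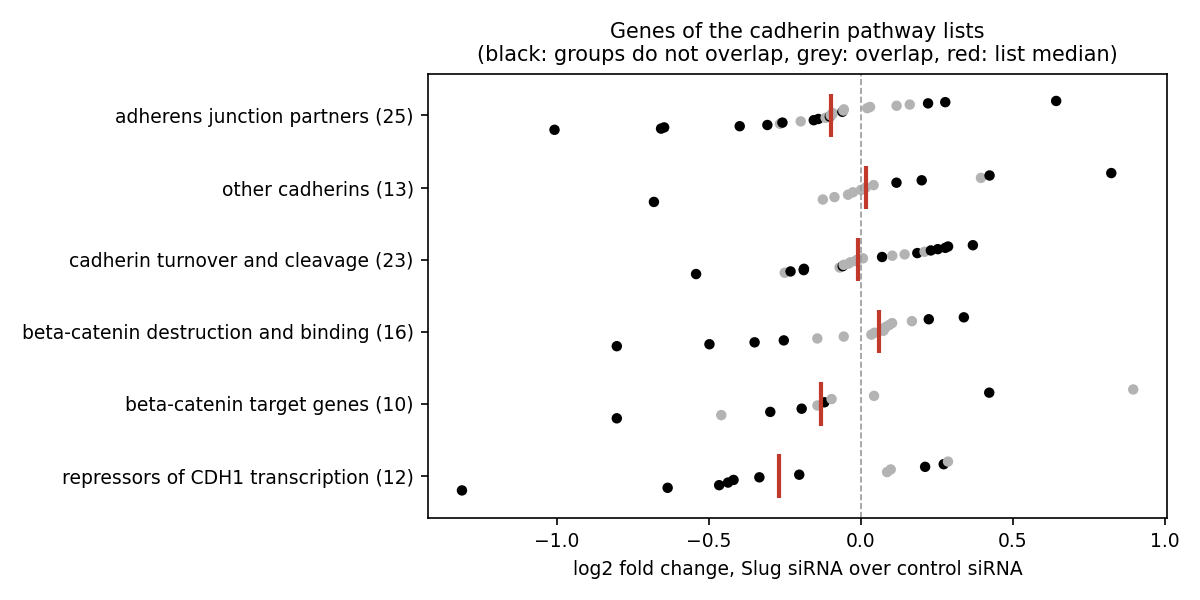
Log2 fold change, Slug siRNA over control siRNA, of each tested gene of the 6 pathway lists (number tested in brackets), in black where the groups do not overlap and in grey where they do, with the list median in red and no change dashed. The medians lie between -0.27 and 0.06, and the lowest gene as reported is the dim TWIST2 at -1.31, which stands at -0.44 without background correction, above CTNNAL1 at -0.83. That setting draws dim probes toward 0 the most, so it does not settle their order.

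**Figure D5:**
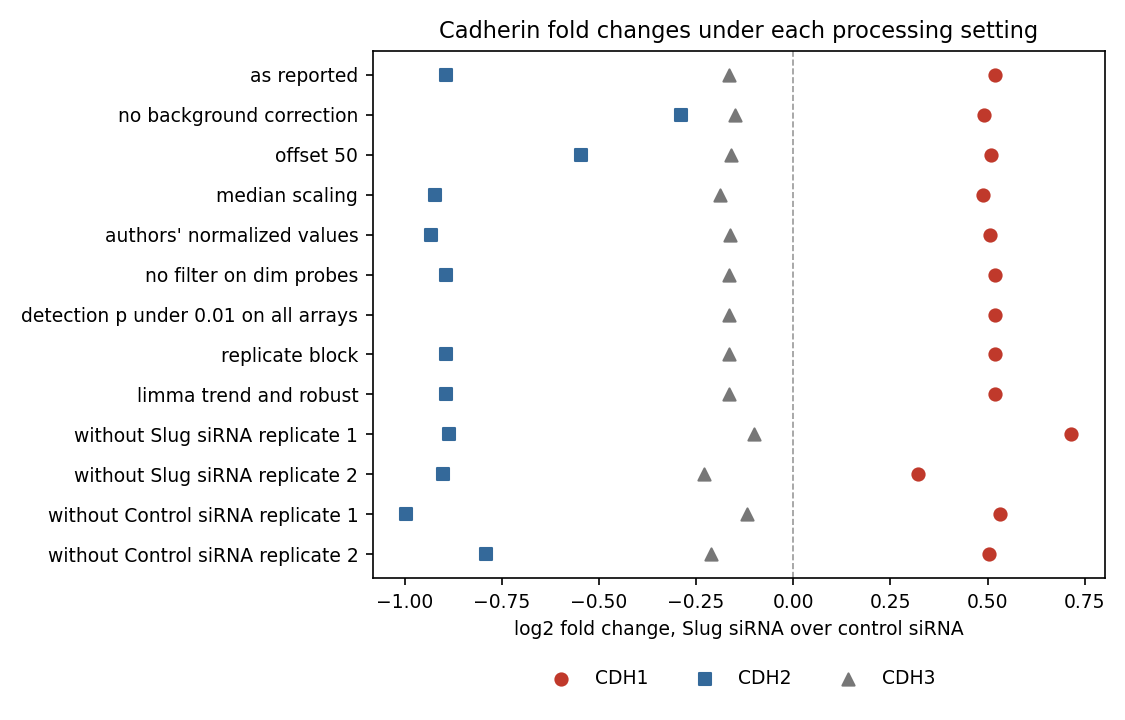
Log2 fold change, Slug siRNA over control siRNA, of CDH1 (red circles), CDH2 (blue squares) and CDH3 (grey triangles) as reported and under each processing alternative. CDH1 stays between 0.32 and 0.72 and CDH2 between -0.996 and -0.29; CDH2 has no value where a detection p under 0.01 was required on all arrays, since 1 Slug siRNA array missed it.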

How the data were processed

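RNA of 4 samples was measured on Illumina bead arrays. The deposited values used were mean bead intensities per probe, not normalized per the file headers, with detection p-values, the bead standard error as a signal in intensity units and the count of beads per probe, all deposited by the authors. The table held 8 further per-sample columns that were not used. The authors also deposited normalized intensities, made in a way not given in the sources used here, used as an alternative after each column was matched to its array (r of at least 0.9999 over probes, against at most 0.990 with another array).

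Intensities were background-corrected in R 4.3.3 with limma 3.58.1 by the normal-exponential model, with negative controls inferred from the detection p-values and an offset of 16, quantile normalized and put on a log2 scale. Probes with a detection p under 0.05 on at least 2 arrays were kept, 19446 of 47323. Fold changes of dim probes are understated, because the offset stays in the signal. Leaving out the background correction or raising the offset leaves more constant signal. These alternatives therefore draw dim probes toward 0 whatever the true difference. A linear model per probe (lmFit, eBayes) held group alone, with 2 residual and 5.11 prior degrees of freedom, and its two-sided p-values were adjusted over the kept probes by Benjamini and Hochberg. The platform annotation named 1 gene for 30113 probes, more than 1 for 8 and none for 17202, and the identifiers of 30074 were found in RefSeq. A gene was represented by its brightest kept probe. The linear model alone was run on simulated log2 values with known changes and no replicate effect. Background correction, normalization, the filter and the ratio test were not part of that run. Figures used matplotlib 3.10.9.

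The 7 genes, the lists and the tests were chosen with earlier results of these data known. From each list the text names genes past the threshold and the 2 highest and 2 lowest, plus the 3 nearest profiles to each cadherin. Alternatives changed the background correction, offset, scaling, source of values, filter, replicate term, variance prior and probe choice, and left out each array in turn. Signal over background and the number of arrays limit the precision.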

Additional observations from a re-analysis of the deposited data

How the results depend on the processing

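CDH1 and CDH2 kept their direction under every alternative that gave a value, CDH1 from 0.32 to 0.72 and CDH2 from -0.996 to -0.29 on the log2 scale; CDH2 was not tested with a detection p under 0.01 on all arrays. The probes called over the whole array moved from 13 to 191 without background correction, 328 with an offset of 50, 45 with median scaling, 3 with the authors' normalized values, 189 with the stricter filter, 330 with a trended and robust variance prior and 549 with the replicate number as a block. With no filter on dim probes the limma fit called 0 of 47323, with 4235 probes, 2 of them member probes, at an unadjusted p under 0.05. Leaving out 1 array gave 3 (without control siRNA replicate 1) to 26 (without control siRNA replicate 2).

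The sample titles share the letters A and B between the groups, but the labels do not tie a replicate number to a shared day. The pairing check gave r = 0.360 over 19446 probes between the replicate differences of the groups. With the replicate block 1 member probe was called, CDH2 (limma adjusted p = 0.031), and CDH1 was not (adjusted p = 0.130); the ratios are by construction the same as a mean of within-replicate differences. The cause of the added calls was not tested.

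The E- over N-cadherin ratio difference was 0.78 without background correction and 1.06 with an offset of 50, and the P- over N-cadherin difference was 0.14 and 0.39; with arrays left out they ranged from 1.22 to 1.601 and from 0.58 to 0.88, and the E- over P-cadherin difference from 0.55 to 0.82. The median of the adherens junction list was -0.0607 without background correction and -0.0610 with the mean over all probes of a gene, and that of the CDH1 repressor list was -0.0665 with no filter on dim probes. With arrays left out the list medians ranged from -0.158 to -0.0715 (adherens junction partners), -0.236 to -0.0341 (beta-catenin targets), -0.337 to -0.200 (CDH1 repressors), -0.0577 to 0.122 (other cadherins), -0.0350 to 0.0551 (turnover) and -0.147 to 0.0899 (destruction and binding). The median of the other cadherins was -0.0306 with median scaling and that of turnover 0.00660 with the mean over all probes of a gene, both turned in sign. Among the probes followed, signs turned only when an array was left out, over ranges of -0.0879 to 0.0753 and -0.237 to 0.0451 for the CTNNA1 probes, -0.33 to 0.14 for the brighter CTNNB1 probe, -0.437 to 0.0073 for the brighter CTNND1 probe, -0.12 to 0.19 and -0.149 to 0.0662 for the brightest and the dimmest JUP probes, -0.326 to 0.0763 for CELSR3, -0.124 to 0.696 for CTBP2 and -1.03 to 0.108 for TNFRSF19. Of 436 alternative values of 37 probes, 14 turned in sign and 11 passed the threshold where the reported value did not, among them CTNNAL1, TWIST2 and DKK1.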
